A study of Homo sapiens with 24 samples.

Results

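OCI-AML3, an established human acute myeloid leukaemia line, was grown in immunodeficient NSG mice, a host that takes human grafts, and the leukaemia cells in the blood of untreated animals were compared with those in the spleen of the same animals. The comparison rests on the 6 arrays titled as control blood or control spleen, of 24 in the series, with 1 blood and 1 spleen array from each of control mice 4, 5 and 6, all harvested on day 42. The line carried luciferase and GFP, and cells were sorted on GFP and human CD45 before RNA was amplified in 2 rounds and hybridised to Illumina human BeadChips. Another array of each mouse, from femoral marrow, gives a reference level, and mice given the CXCR4 inhibitor LY2510924 (spelled LY2510294 in some labels) for 24 h (mice 1, 2 and 3, day 41) or 72 h (mice 8 and 9, day 43) serve as a contrast at the end. They received 2.5 mg/kg under the skin daily. No normal haematopoietic cells and no cultured OCI-AML3 cells were analysed here, and all mice carried the same engineered line. Values are background-corrected, quantile-normalised intensities on a log2 scale. A difference is blood minus spleen on that scale over 3 mice. Its standard error comes from limma's single fit of all 24 arrays, which takes the spread from all 8 mice, and a gene is called when the Benjamini-Hochberg adjusted p of limma is below 0.05.

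The spleen is a filter in which blood flows through open tissue, so that leukaemia cells there touch stroma, macrophages and red cells, whereas cells in the circulation are in suspension. Myeloid leukaemia cells are held in tissue by integrins and chemokines, chiefly CXCL12 acting on its receptor CXCR4. Contact, growth factors and nutrients act through immediate early transcription factors, the cell cycle machinery and the sterol-sensing factors that set cholesterol synthesis.

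The 6 arrays detected between 14316 and 15267 probes each. Blood arrays correlated with each other by 0.978 to 0.988 and spleen arrays by 0.989 to 0.993. Blood and spleen of the same mouse correlated by 0.979 in mice 4 and 5 and by 0.957 in mouse 6, whose blood array stood apart from the others. Of 12 marker genes of the myeloid line on the array, 9 were detected, among them CEBPA, SPI1, MEIS1 and HOXB2, while CD34, KIT and MPO were not. PTPRC, which encodes the CD45 used in the sort, was detected on 3 blood and 2 spleen arrays, with values of 6.79, 7.33 and 7.41 in blood and 5.87, 6.03 and 6.68 in spleen. Of 9 tested list members it was the only one called, higher in blood by 0.99 (11.1%, beside 5.73% of all genes). Its 3 probes ranged from 0.17 to 0.99. The call was lost with no replicate block, with the mean over probes and with median scaling. It was also lost without mouse 4, 5 or 6, with no background correction and with the BeadChip as a block. The unscaled series matrix and the run with no filter on dim probes lost it too.

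Of 10351 genes tested, 593 were called (5.73%), of which 378 were higher in blood (3.65%) and 215 lower (2.08%). All 593 moved the same way in all 3 mice, where 30.5% of all genes were lower and 28.2% higher in all 3. The calls rest on these same mice, so that this is largely built in. In the same fit 1684 genes (16.3%) were called between blood and marrow and 58 (0.56%) between spleen and marrow. The arrays of blood and spleen did not overlap for 4009 genes (38.7%). The number called depended on the fit: it was 171 with no replicate block for the mouse and 2926 when only the 9 control arrays were fitted, a fit that kept all 593. Leaving out mouse 4, 5 or 6 left 64, 113 and 14 calls. Mouse 4 lay on BeadChip 1 and mice 5 and 6 on BeadChip 2, and BeadChip 2 alone gave 41 calls. BeadChip 1 leaves a single control mouse, with the spread taken from treated mice, so that its count of 0 by limma (367 at an unadjusted p under 0.05) says little. With median scaling in place of quantiles the median of all genes moved to -0.14, and 316 were called, 123 higher and 193 lower in blood. The differences themselves varied less between control mice than between treated ones, with a median standard deviation over mice of 0.227 in controls, 0.384 at 24 h and 0.390 at 72 h, and the pooled fit uses all of these.

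**Figure D1:**
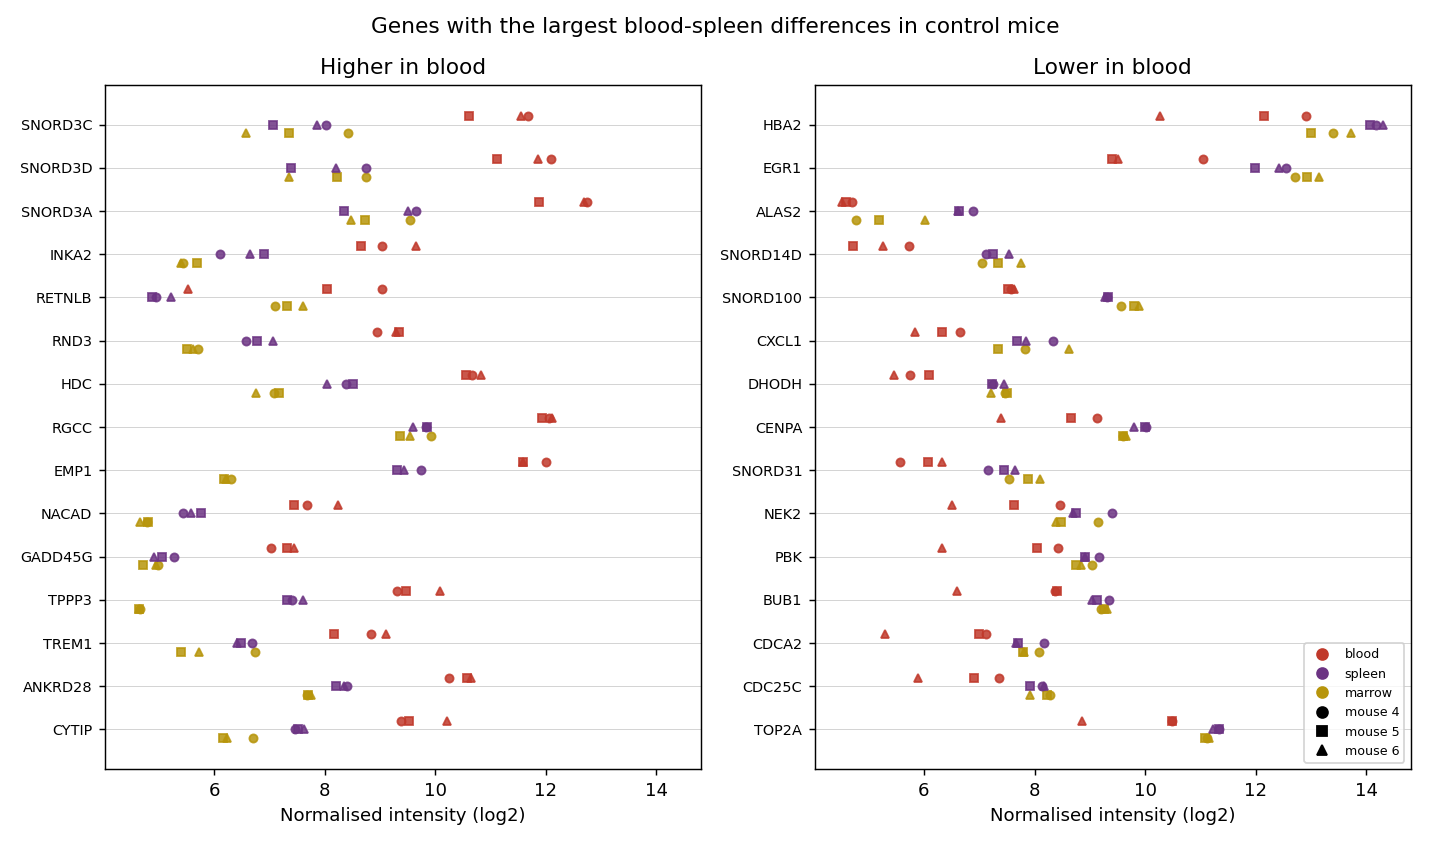
Normalised log2 intensity (horizontal axis) of the 15 largest rises and 15 largest falls among called genes, with blood in red, spleen in purple and marrow in ochre, and a symbol per control mouse. Blood and spleen points do not overlap for any of the 30 genes, and the triangle of mouse 6 lies lowest among the blood points of the mitotic genes such as CENPA and TOP2A.

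The largest differences were those of the U3 small nucleolar RNA, which guides the early cleavages of the ribosomal RNA precursor. SNORD3A stood at 12.75, 11.87 and 12.69 in blood of mice 4, 5 and 6 and at 9.66, 8.35 and 9.50 in spleen. It was 9.64-fold higher in blood (log2 difference 3.27 ± 0.41, adjusted p = 0.000905). SNORD3D and SNORD3C, near-identical copies whose probes may read each other, rose by 3.57 ± 0.45 and 3.62 ± 0.53. Mouse 5 was the lowest of the 3 in both sites, and every blood array exceeded every spleen array.

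This rise was not shared by the small RNA genes as a class. Of 125 tested, 5 rose and 8 fell (10.4% called), against 3.65% and 2.08% of all genes (5.73% called). Their median difference was -0.22 beside -0.02 over all genes. Without mouse 4, 5 or 6 the list had 4, 4 and 2 rises, and each of these runs had 0 falls. With no replicate block it had 4 rises and 2 falls. SNORA16A was detected in blood of all 3 mice and in spleen of none, a rise of at least 1.43-fold, and SNORA57 rose by 0.74 ± 0.21. SNORD100, a guide RNA encoded in an intron of RPS12, stood at 7.58, 7.51 and 7.63 in blood and at 9.31, 9.32 and 9.27 in spleen. Its fall of 1.72 on the log2 scale (± 0.28, adjusted p = 0.00391) was seen at almost the same size in each mouse. SNORD14D was detected on none of the blood arrays and on 3 spleen arrays, at least 2.73-fold lower in blood, and SNORD31 fell by 1.43 ± 0.26. The others that fell were SNORD35A, SNORD14A, SNORA70 and SNORD15B, by 0.69 to 1.25 on the log2 scale, and SNORA27, which no blood array detected, by at least 1.07-fold. Spliced host transcripts of 5 of these guides, picked after the values were seen, were not called: RPS12 differed by 0.00, RPS13 by -0.21, RPL13A by -0.30, HSPA8 by -0.37 and SNHG1 by -0.50.

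INKA2, RND3, TPPP3 and CYTIP were among the protein-coding genes with the largest rises. INKA2, an inhibitor of the kinase PAK4, stood at 9.04, 8.65 and 9.66 in blood and at 6.11, 6.90 and 6.66 in spleen, and was not detected on the 3 marrow arrays. RND3, a small GTPase that opposes RhoA and so relaxes actomyosin, read 8.95, 9.34 and 9.28 in blood against 6.58, 6.77 and 7.06 in spleen. TPPP3, a tubulin-binding protein, read 9.32, 9.48 and 10.08 against 7.41, 7.31 and 7.61. For these 3 genes the highest spleen value lay well below the lowest blood value, with differences of 2.56 ± 0.42, 2.39 ± 0.33 and 2.18 ± 0.37 (adjusted p of 0.00417, 0.0016 and 0.00464). CYTIP, which binds cytohesin and lowers integrin-mediated adhesion, rose by 2.16 ± 0.24 (adjusted p = 0.000557), with blood at 9.37, 9.52 and 10.22 and spleen at 7.47, 7.52 and 7.63. Its second probe read 0.58.

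EMP1, a tetraspan membrane protein, formed a gradient over the sites. It read 12.01, 11.59 and 11.59 in blood, 9.74, 9.31 and 9.43 in spleen and 6.32, 6.19 and 6.21 in marrow. No value of one site reached into the next, and blood exceeded spleen by 2.24 ± 0.37 (adjusted p = 0.00431). RGCC, a cell cycle regulator induced by complement, did not show such a gradient, with 12.05, 11.93 and 12.11 in blood but 9.84, 9.85 and 9.59 in spleen and 9.92, 9.37 and 9.55 in marrow. HDC, the enzyme that makes histamine, read 10.66, 10.56 and 10.82 in blood and 8.39, 8.52 and 8.05 in spleen, a rise of 2.36 ± 0.35. GADD45G, a growth arrest gene, and NACAD were detected in blood of every mouse and in spleen of none, at least 2.63-fold and 3.78-fold higher in blood. ANKRD28, a subunit of a protein phosphatase complex, rose by 2.17 ± 0.34, and its second probe read 1.07. RETNLB, a secreted resistin-like protein, was carried by mice 4 and 5 only: blood read 9.03 and 8.04 there but 5.53, at background, in mouse 6, and spleen was undetected in all 3, which gives at least 3.18-fold.

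Only 6 of the 30 genes with the largest rises or falls stayed called with no replicate block and without each control mouse in turn. They were SNORD3A, SNORD3D, NACAD, TREM1, CYTIP and CXCL1, and over these 4 settings their adjusted p did not exceed 0.0450. Without mouse 6, SNORD3A, SNORD3D, TREM1 and CXCL1 were also the only members still called in any of the gene lists described here, among lists with 3 or more tested genes.

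Genes of cell division were lower in blood. Of 46 tested genes for G2, mitosis and cytokinesis, 22 fell and 0 rose, against 2.08% of all genes called lower, with a median difference of -1.05. All 46 were lower in blood of all 3 mice, beside 30.5% of all genes. CENPA, the histone variant that marks the centromere, read 9.14, 8.66 and 7.40 in blood and 10.02, 10.002 and 9.80 in spleen. It fell by 1.54 on the log2 scale (± 0.28, adjusted p = 0.00627). Spleen values were nearly equal over the mice, and the blood values spread downwards to mouse 6.

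The promoters of 4 of the called mitotic genes are shown because this group moved together and shares sequence elements. TTTGAA is the core of the cell cycle homology region, which the DREAM complex and B-MYB with FOXM1 use to time transcription to G2 and mitosis, and CCAAT is the site of NF-Y. Each line is the RefSeq sequence from 250 bases before to 50 after the start of the gene on GRCh38.p14, read along the gene, with matches to either motif on either strand in capitals. CENPA lies at chr2:26785806-26786105 on the plus strand, DLGAP5, a spindle protein, at chr14:55191536-55191835 on the minus strand, CDK1, the mitotic kinase, at chr10:60778081-60778380 on the plus strand and NDC80, a kinetochore subunit, at chr18:2571307-2571606 on the plus strand.
CENPA: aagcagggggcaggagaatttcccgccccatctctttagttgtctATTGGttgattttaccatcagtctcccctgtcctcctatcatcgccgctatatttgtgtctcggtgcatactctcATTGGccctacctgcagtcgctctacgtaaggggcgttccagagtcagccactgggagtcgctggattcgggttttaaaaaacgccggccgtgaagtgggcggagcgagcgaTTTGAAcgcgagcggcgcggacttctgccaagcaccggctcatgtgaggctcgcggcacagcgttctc
DLGAP5: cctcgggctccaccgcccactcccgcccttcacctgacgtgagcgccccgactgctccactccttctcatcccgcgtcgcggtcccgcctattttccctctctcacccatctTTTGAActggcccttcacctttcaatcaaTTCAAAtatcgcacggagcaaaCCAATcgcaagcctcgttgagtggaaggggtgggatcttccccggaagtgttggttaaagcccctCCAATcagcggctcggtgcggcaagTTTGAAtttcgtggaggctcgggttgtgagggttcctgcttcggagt
CDK1: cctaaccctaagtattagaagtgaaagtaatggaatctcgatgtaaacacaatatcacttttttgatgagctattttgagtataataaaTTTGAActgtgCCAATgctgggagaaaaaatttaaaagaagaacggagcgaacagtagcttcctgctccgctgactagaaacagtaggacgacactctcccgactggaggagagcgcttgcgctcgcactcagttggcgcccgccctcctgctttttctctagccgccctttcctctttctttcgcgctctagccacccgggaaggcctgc
NDC80: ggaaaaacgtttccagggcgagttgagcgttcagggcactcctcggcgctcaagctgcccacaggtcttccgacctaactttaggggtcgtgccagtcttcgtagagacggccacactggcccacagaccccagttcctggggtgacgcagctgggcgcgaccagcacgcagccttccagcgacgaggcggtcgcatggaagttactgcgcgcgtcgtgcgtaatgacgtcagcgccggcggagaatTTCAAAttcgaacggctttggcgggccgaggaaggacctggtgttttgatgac
TTTGAA was present in 27 of the 38 list members with a promoter in the RefSeq table (71.1%), beside 4212 of all 27305 promoters (15.4%). CCAAT was present in 31 of 38 (81.6%), beside 35.7% of all. The 4 genes shown were the called members with the smallest p among those holding TTTGAA. A match describes these letters alone.

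The levels of the other genes shown followed CENPA. DLGAP5 read 8.76, 8.54 and 7.19 in blood and 9.51, 9.45 and 9.44 in spleen. CDK1 read 8.30, 8.26 and 6.96 against 9.05, 9.14 and 9.15. It fell by 1.28 on the log2 scale (± 0.27, adjusted p = 0.0163). NDC80 was detected on 2 of 3 blood arrays, at 6.99, 6.52 and 5.52, and on all spleen arrays, at 7.83, 7.49 and 7.48. Mouse 6 was again lowest in blood for each of them. TOP2A, the topoisomerase that untangles sister chromatids, fell by 1.36 ± 0.30, and the spindle kinase NEK2 by 1.42 ± 0.28. The checkpoint kinase BUB1 fell by 1.39 ± 0.37 and the phosphatase CDC25C, which activates CDK1, by 1.36 ± 0.31. For CDC25C 1 of 3 probes read the other way, at 0.23. FOXM1, a transcription factor for this group, fell by 1.05 ± 0.26 and the cyclin CCNB1 by 0.79 ± 0.21.

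The size of the mitotic difference was set to a large part by 1 animal. The median over the 46 genes was -0.62 in mouse 4, -0.69 in mouse 5 and -1.90 in mouse 6, and all 46 genes fell furthest in mouse 6. Without mouse 6 the median was -0.64, and 0 of 46 passed the threshold. Without mouse 4 there was 1 call, without mouse 5 there were 0, and with no replicate block there were 2. In the fit of the 9 control arrays 44 of 46 were called lower.

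**Figure D2:**
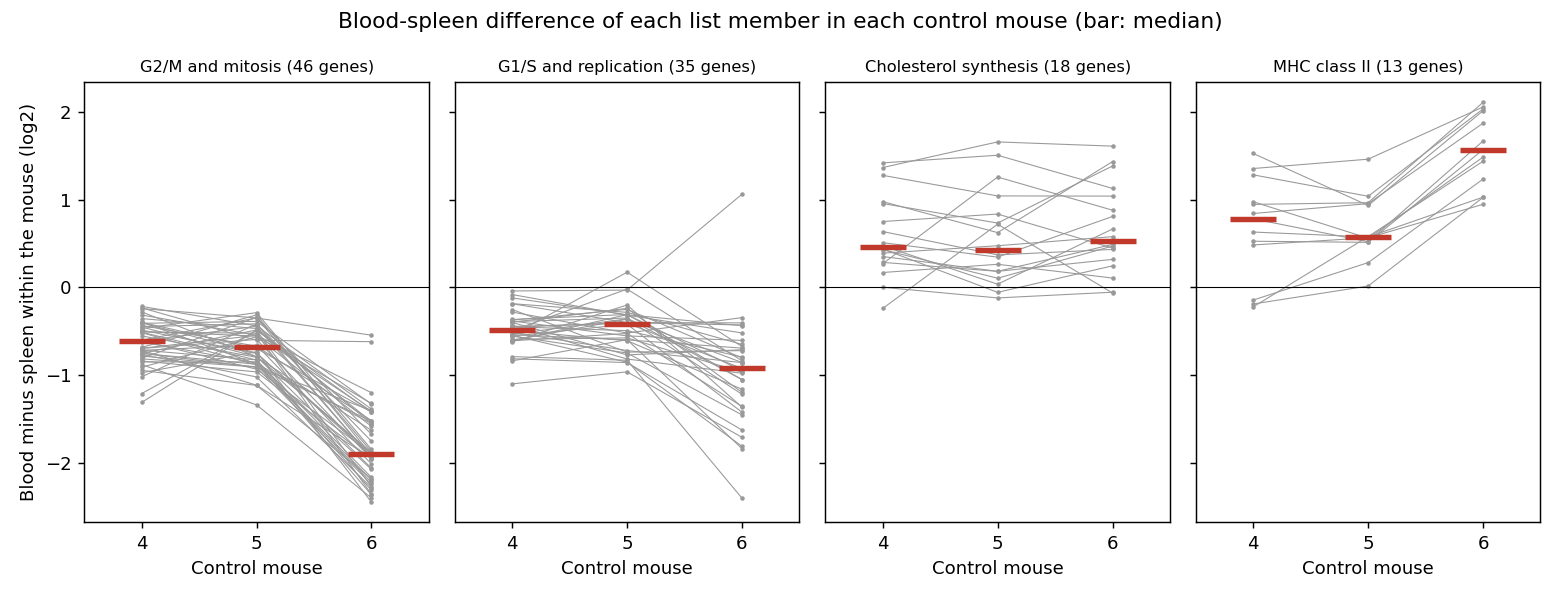
Blood minus spleen (log2, vertical axis) of each gene within each of the 3 control mice, for 4 gene lists, with a grey line per gene and a red bar at the median. The mitosis list drops to a median of -1.90 in mouse 6, MHC class II rises to 1.57 there, and the cholesterol medians of 0.46, 0.42 and 0.53 are close to each other.

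Genes for the G1 to S transition and DNA replication moved in the same direction to a smaller extent. Of 35 tested, 9 fell and 0 rose, against 2.08% of all genes called lower, with a median of -0.61 and medians of -0.49, -0.42 and -0.93 in mice 4, 5 and 6. GINS2, a subunit of the replicative helicase, read 10.58, 10.35 and 9.78 in blood and 11.40, 11.21 and 11.41 in spleen. It fell by 1.10 on the log2 scale (± 0.20, adjusted p = 0.00587). The clamp loader subunit RFC3 fell by 1.34 ± 0.29, MCM2 of the same helicase by 0.71 ± 0.17 and the thymidylate synthase gene TYMS by 1.09 ± 0.28. RRM2, a subunit of ribonucleotide reductase, fell by 1.26 ± 0.26 but was detected on 1 of 3 blood arrays. Without mouse 4, 5 or 6 the calls in this list were 0, 1 and 0, and with no replicate block 2.

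DHODH, an enzyme of pyrimidine synthesis, also fell, by 1.55 ± 0.26, with 5.74, 6.09 and 5.45 in blood and 7.25, 7.23 and 7.46 in spleen. It was detected on 1 blood array. Replication-dependent histone genes, whose messages are normally made in S phase, included 5 of 31 that rose, against 3.65% of all genes, and 0 that fell. H2BC12, H2AC18, H2BC5 and H2AC19 rose by 0.80 to 1.30 on the log2 scale, and H2AC6, detected on 2 blood arrays and on none of spleen, by at least 1.43-fold. The second probes of H2BC12 and H2BC5 read 0.70 and 0.41. By limma 0 of the 31 were called with median scaling, on the unscaled series matrix and without mouse 4, 5 or 6, beside 8 at an unadjusted p under 0.05 with all mice. Members of this family are close in sequence, so that their probes may share signal.

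Ribosome biogenesis genes had a median of -0.48, and 3 of 34 fell while 0 rose, against 2.08% of all genes called lower. They were DKC1 and NHP2, both of the H/ACA ribonucleoprotein that modifies ribosomal RNA, and NOP16, a nucleolar assembly factor, at -0.66 ± 0.15, -0.58 ± 0.15 and -0.83 ± 0.23. None of these 3 was called by limma with no replicate block or without any 1 of the control mice. MYC, which drives this group and the cell cycle, read 8.82, 9.06 and 7.99 in blood and 9.73, 9.81 and 9.72 in spleen. It fell by 1.13 on the log2 scale (± 0.27, adjusted p = 0.0264). Of 68 cytosolic ribosomal protein genes only RPL39L fell (1.47%), beside 2.08% of all genes called lower. Of 69 subunits of oxidative phosphorylation 0 were called by limma, 9 at an unadjusted p under 0.05. The list medians were -0.14 and -0.23.

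Immediate early genes split. EGR1, a transcription factor switched on within minutes by growth factors or adhesion, read 11.06, 9.40 and 9.51 in blood, 12.55, 11.99 and 12.42 in spleen and 12.71, 12.93 and 13.14 in marrow. It fell by 2.33 on the log2 scale (± 0.34, adjusted p = 0.00201), and its highest blood value, that of mouse 4, lay below every spleen value. Of 24 tested members of the list, EGR1 and MYC fell and 3 rose, which is 20.8% called, against 5.73% of all genes. The list median was 0.12 (-0.04 on the unscaled series matrix). IER5, a heat shock co-regulator, rose by 1.34 ± 0.24 and the zinc finger factor KLF6 by 1.00 ± 0.20. IER5L, detected in blood alone, was at least 1.37-fold higher. FOS, the partner of JUN in AP-1, differed by -0.47 ± 0.17 and did not pass (adjusted p = 0.124).

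Phosphatases that switch off mitogen-activated kinases rose where they were called. DUSP8, which acts on JNK and p38, read 7.38, 8.12 and 7.85 in blood and 5.73, 6.001 and 5.72 in spleen, where 1 of 3 arrays detected it (1.97 ± 0.26, adjusted p = 0.00135). DUSP5, a nuclear phosphatase for ERK, rose by 1.07 ± 0.16. With DUSP8 this made 2 of 12 tested ERK feedback genes, against 3.65% of all genes called higher, and the other 10 were not called. In the Notch pathway 1 of 18 was called, close to the 5.73% of all genes: LFNG, the glycosyltransferase that tunes Notch receptors for their ligands, rose by 1.43 ± 0.29. Its 3 probes ranged from 0.10 to 1.43, and the call was lost with the mean over them (adjusted p = 0.0872), with median scaling (adjusted p = 0.0725) and without each control mouse. The Notch target HES1 was lower at -0.79 ± 0.25 without passing (adjusted p = 0.078).

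**Figure D3:**
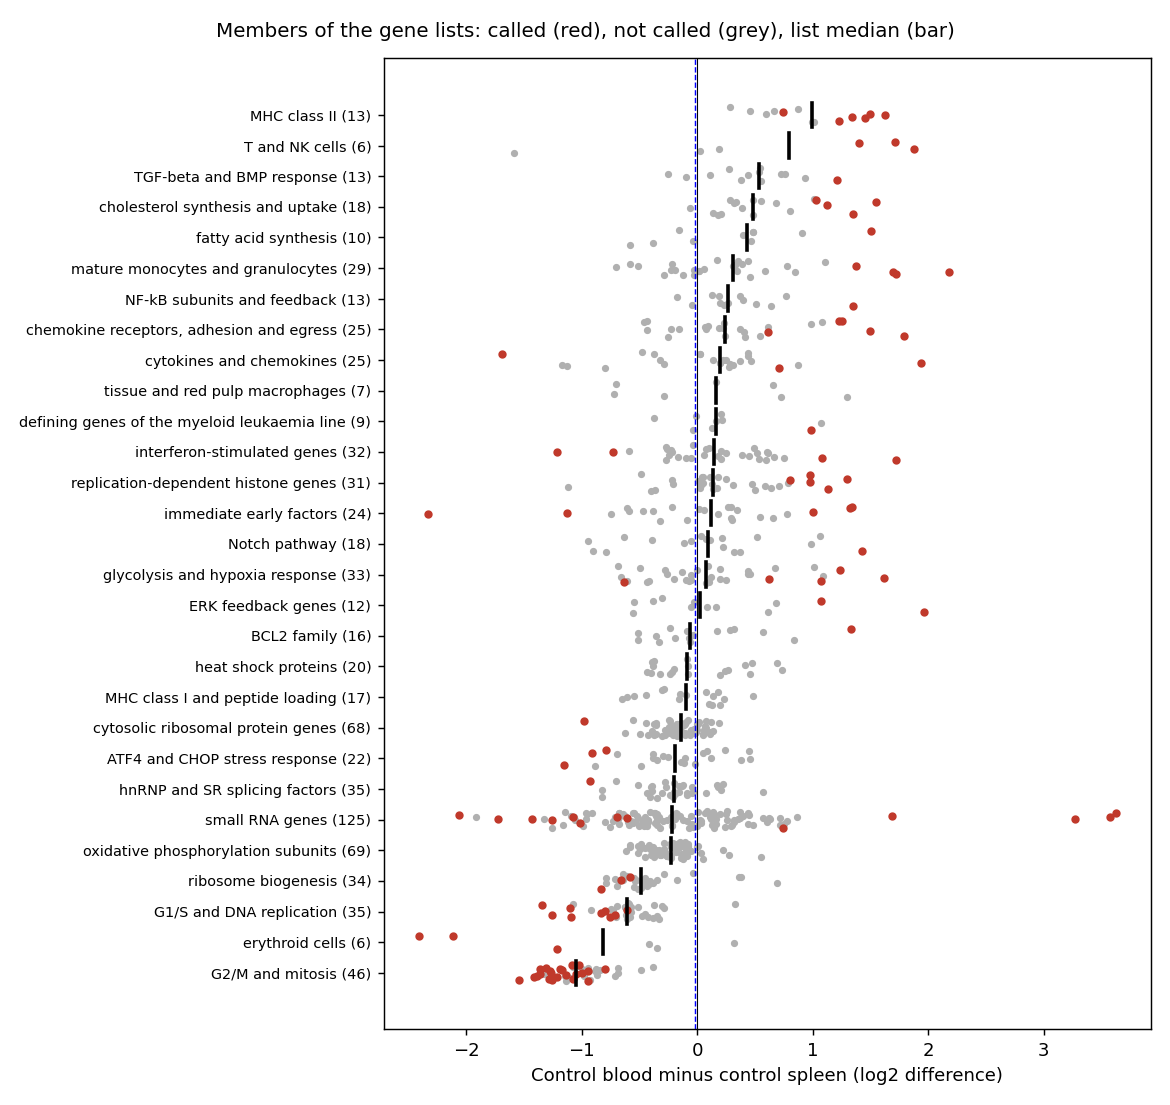
Difference between control blood and control spleen (log2, horizontal axis) of each member of the lists with 5 or more tested genes, ordered by median, with the number tested in brackets. Called genes are red, the black bar is the list median and the dashed line the median of all genes at -0.02. The mitosis members lie wholly left of 0 and the MHC class II members wholly right.

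Cholesterol synthesis genes were higher in blood, and to a similar extent in each mouse. Of 18 tested, 4 rose and 0 fell, against 3.65% of all genes called higher, with a median of 0.48. MSMO1, which removes methyl groups from lanosterol-derived sterols, read 8.75, 8.92 and 8.78 in blood, 7.38, 7.26 and 7.16 in spleen and 7.503, 7.39 and 7.58 in marrow. It rose by 1.55 ± 0.24 (adjusted p = 0.00287), with spleen at the level of marrow and blood above both, although its second probe read -0.02. SQLE, the epoxidase that commits squalene to sterols, read 11.83, 12.28 and 11.72 in blood against 10.41, 10.77 and 10.59 in spleen (1.35 ± 0.35, adjusted p = 0.0357). The next enzymes LSS and CYP51A1 rose by 1.03 ± 0.25 and 1.12 ± 0.18. SCD, the stearoyl-CoA desaturase, was the only one called of 10 fatty acid synthesis genes, at 1.504 ± 0.33, beside 5.73% of all genes called. In all 15 of 18 cholesterol genes were higher in every mouse, beside 28.2% of all genes. Without mouse 4, 5 or 6 the calls in the cholesterol list were 1, 2 and 0, and the median stayed between 0.43 and 0.55. With median scaling 1 was called and on the unscaled series matrix 0, at medians of 0.37 and 0.41. The sterol response element searched, TCACNCCAC on either strand, was in 0 of 16 promoters of the list and in 1.1% of all.

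MHC class II genes, which present extracellular antigen, were higher in blood. Of 13 tested, 6 rose and 0 fell, against 3.65% of all genes called higher, with a median of 0.99 that ranged from 0.58 in mouse 5 to 1.57 in mouse 6. HLA-DPA1 read 9.10, 9.66 and 10.46 in blood and 7.74, 8.20 and 8.40 in spleen (1.63 ± 0.28, adjusted p = 0.00565). HLA-DMA and HLA-DMB, which load peptides, rose by 1.34 ± 0.26 and 1.22 ± 0.26 and HLA-DRA by 0.75 ± 0.17. HLA-DRB6 and HLA-DRB4 passed as well, but probes for DRB genes may read each other, and 1 of 3 HLA-DRB4 probes read -0.09. CIITA, the master regulator of these genes, stood at 0.28 ± 0.36 and was not called (adjusted p = 0.701). Marrow was lower than spleen for HLA-DPA1, at a mean of 6.46. With no replicate block 0 of the 13 passed, with the mouse as a random block 2 and with median scaling 3, and without mouse 4, 5 or 6 there were 1, 1 and 0. Of 17 genes for MHC class I and peptide loading 0 were called by limma, and 5 had an unadjusted p under 0.05.

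Genes of mature monocytes and granulocytes rose where they were called, 4 of 29 with 0 falling, against 3.65% of all genes called higher. The list median of 0.31 came to 0.11 without mouse 6 and to 0.12 with median scaling, and 10 of the 29 had values below 0. Of these TLR2 and MNDA had an unadjusted p under 0.05, and the fit of the 9 control arrays called 2 members lower. Without mouse 4, 5 or 6 the list had 1, 3 and 1 calls. TREM1, an activating receptor that amplifies inflammation, read 8.85, 8.17 and 9.11 in blood and 6.69, 6.48 and 6.41 in spleen, a rise of 2.18 ± 0.27 (adjusted p = 0.000905). CD14, the co-receptor for endotoxin, read 11.56, 11.37 and 12.46 against 9.83, 10.10 and 10.29 (1.72 ± 0.31, adjusted p = 0.00582). In both genes each blood value lay above each spleen value. The receptors LILRB2 and LILRA5 rose by 1.38 ± 0.33 and 1.70 ± 0.45, the latter detected on 1 spleen array.

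Of 25 genes for adhesion, chemokine receptors and egress, 5 rose and 0 fell, against 3.65% of all genes called higher. Without mouse 4, 5 or 6 there were 0, 2 and 0 calls, and with no replicate block 2. ITGAX, the integrin chain CD11c of a complement receptor, read 11.13, 10.87 and 11.82 in blood and 9.59, 9.93 and 9.81 in spleen (1.498 ± 0.27, adjusted p = 0.00671). The leukocyte integrin chains ITGAL and ITGB7 rose by 1.26 ± 0.28 and 1.23 ± 0.25, the hyaluronan receptor CD44 by 0.61 ± 0.16 and the tetraspanin CD9 by 1.79 ± 0.49, with its second probe at -0.13. CXCR4 read 10.98, 10.62 and 10.86 in blood and 10.92, 11.14 and 11.15 in spleen. The sites overlapped, and the difference of -0.25 ± 0.24 did not pass (adjusted p = 0.594). Its second probe read -0.65, and the mean over both gave -0.45 ± 0.19 (adjusted p = 0.168). Its ligand CXCL12 was detected on 0 of 24 arrays by any of 3 probes. The arrays hold RNA of sorted human cells, so that this says nothing about CXCL12 made by the host.

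Among 25 cytokine and chemokine genes 12% were called, against 5.73% of all genes. CXCL16 and CCL5 rose, by 1.94 ± 0.36 and 0.71 ± 0.18. CXCL1, a neutrophil attractant, read 6.65, 6.34 and 5.83 in blood and 8.33, 7.69 and 7.85 in spleen. It fell by 1.69 on the log2 scale (± 0.27, adjusted p = 0.00371). Its blood values were all below its spleen values, and marrow stood with spleen at 7.82, 7.34 and 8.62. BCL3, a nuclear partner of NF-kB, was the only one called of 13 genes for that pathway (1.35 ± 0.19, adjusted p = 0.0016). This is 7.69%, close to the 5.73% of all genes called. ID2, an inhibitor of helix-loop-helix factors induced by BMP and TGF-beta, was the only one of 13 for those pathways (1.21 ± 0.26), or 7.69%. Its second probe read 0.59, and the call was lost with the mean over both (adjusted p = 0.0568), with median scaling (adjusted p = 0.0675) and without each control mouse. The list median was 0.54, or 0.35 with median scaling.

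Metabolic and stress lists moved in single genes. SLC2A3, a glucose transporter with high affinity, read 11.51, 11.62 and 11.94 in blood and 10.40, 10.39 and 10.56 in spleen, a rise of 1.24 ± 0.16 (adjusted p = 0.00135). The phosphofructokinase PFKP rose by 1.07 ± 0.23 while its muscle-type relative PFKM fell by 0.63 ± 0.16. The hypoxia-induced peptide gene ADM rose by 1.62 ± 0.36 and PFKFB4, a regulator of glycolysis, by 0.62 ± 0.17. The share called of the 33 glycolysis and hypoxia genes was 15.2%, against 5.73% of all genes. The other 28 were not called, and the list median was 0.08, or -0.09 with median scaling. Of 22 genes of the ATF4 and CHOP stress response 3 fell, against 2.08% of all genes, with 0 left with no replicate block and 0, 1 and 0 without mouse 4, 5 or 6: DDIT3, which encodes CHOP, by 0.91 ± 0.18, and the serine synthesis enzymes PHGDH and PSAT1 by 0.79 ± 0.16 and 1.15 ± 0.25. Of 20 heat shock protein genes 0 were called by limma, and 4 had an unadjusted p under 0.05. Interferon-stimulated genes split, with ISG20 and GBP2 higher at 1.72 ± 0.28 and 1.08 ± 0.27 and HERC5 lower at -1.21 ± 0.27, of 32 tested. RSAD2, detected on 1 spleen array and none of blood, was at least 1.03-fold lower. With it 12.5% of the 32 were called, against 5.73% of all genes. In the BCL2 family BMF, which promotes cell death on loss of attachment, was the only one called of 16 (1.33 ± 0.21, adjusted p = 0.00371). This is 6.25%, close to the 5.73% of all genes. SRSF7 fell by 0.93 ± 0.18, the only call among 35 splicing factors (2.86%, beside 5.73% of all genes).

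Genes listed as markers of other cells differed between the sites too. HBA2, an alpha-globin gene, read 12.90, 12.15 and 10.27 in blood and 14.18, 14.07 and 14.31 in spleen. It fell by 2.41 on the log2 scale (± 0.64, adjusted p = 0.0411), with marrow at 13.40, 13.01 and 13.72. Spleen was uniformly high, and blood was lowest in mouse 6. ALAS2, the first enzyme of haem synthesis in red cells, was detected on 3 spleen and 0 blood arrays, at least 1.82-fold lower in blood, and HBD, on 1 spleen array and none of blood, at least 1.12-fold lower. With no replicate block, and without each control mouse in turn, 0 of the 6 tested erythroid genes were called by limma, and 4 had an unadjusted p under 0.05 with all mice and the block. Of 16 erythroid markers on the array 6 were detected on any of the 6 arrays. HBB, HBA1, AHSP, KLF1 and SLC4A1 were among the 10 that were not. Red cells of the host are mouse cells, and whether the HBA2 probe reads mouse globin RNA was not tested. The summed intensity of the markers ran from 4129 to 10447 in blood and from 20004 to 23011 in spleen, where most of it came from HBA2. The part of these transcripts in the differences of other genes was not tested, and in sorted bulk samples a change in the share of a cell type and in its RNA per cell cannot be told apart.

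Of the T and NK cell list, 3 of 6 tested genes rose, against 3.65% of all genes called higher. They were GZMB, a cytotoxic granule protease, by 1.88 ± 0.29, GNLY, a granule protein, by 1.71 ± 0.30 and IL7R, the interleukin 7 receptor, by 1.40 ± 0.27. GNLY read between 11.49 and 12.01 on the 3 blood arrays, 10.30, 10.17 and 9.89 in spleen and a mean of 6.39 in marrow, and the lowest of its 3 probes differed by 0.85. GZMA, another granule protease, lay the other way, at 6.71, 6.52 and 5.501 in blood and 8.11, 7.65 and 7.72 in spleen. Its difference of -1.58 ± 0.58 did not pass (adjusted p = 0.124) but did in the fit of the 9 control arrays (adjusted p = 0.0248). NKG7 and NCAM1 were not called, at means of 9.36 and 9.32 in blood and 9.16 and 9.30 in spleen. The defining T and NK genes CD3D, CD3E, CD3G, CD2, CD4, CD8A, LCK and PRF1 were detected on none of the 6 arrays. The summed intensity of the list ran from 5552 to 6346 in blood and from 2889 to 3259 in spleen, with GNLY the brightest member by mean in both. Without mouse 4, 5 or 6 there were 1, 2 and 0 calls in the list, and with no replicate block 0. The lists for B cells, platelets, macrophages and stroma had 0 calls by limma, with 0, 0, 3 and 1 members at an unadjusted p under 0.05. For B cells 2 of 9 markers were detected, with sums of 306 to 359 in blood and 309 to 338 in spleen, and for platelets 2 of 10, with 428 to 494 and 443 to 479. For macrophages 6 of 13 were detected, with 1060 to 1154 and 1055 to 1170, and C1QA, SPIC and CD5L were undetected. For stroma 2 of 14 were detected, with 1471 to 1960 and 1220 to 1465, and COL1A1, CDH5 and VWF were undetected. All these marker probes are for human genes, and how far they read mouse RNA was not tested. Undetected markers therefore say little about cells of the host.

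Mice given the inhibitor give a contrast for the difference between blood and spleen, with the harvest day differing by group. At 24 h 180 genes were called between blood and spleen (1.74%), and 25 of them were among the 593 of the controls with the same direction, which is 4.22% of the control calls and 13.9% of the 24 h calls. At 72 h 393 were called (3.80%), and 59 were shared with the same direction, 9.95% of the control calls and 15% of the 72 h calls. Of the 593, 404 had the same sign at 24 h and 478 at 72 h, and the same count over all genes was not taken. The 378 genes higher in blood of controls had a median of 1.11 there, 0.17 at 24 h and 0.38 at 72 h, and the 215 lower ones -0.89, -0.20 and -0.42. All genes tested had a median of -0.02 at 24 h and -0.07 at 72 h. The 593 were picked on their control values, so that smaller values in other mice are in part built in. SNORD3A differed by 3.27 in controls, 3.75 at 24 h and 2.71 at 72 h, and neither treated value passed a test against the control value (adjusted p = 0.664 at 24 h). EGR1 stood at -2.33, -1.51 and -0.44, and neither treated value passed a test against the control value (0.82 ± 0.48, adjusted p = 0.347 at 24 h, and 1.89 ± 0.54, adjusted p = 0.160 at 72 h).

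**Figure D4:**
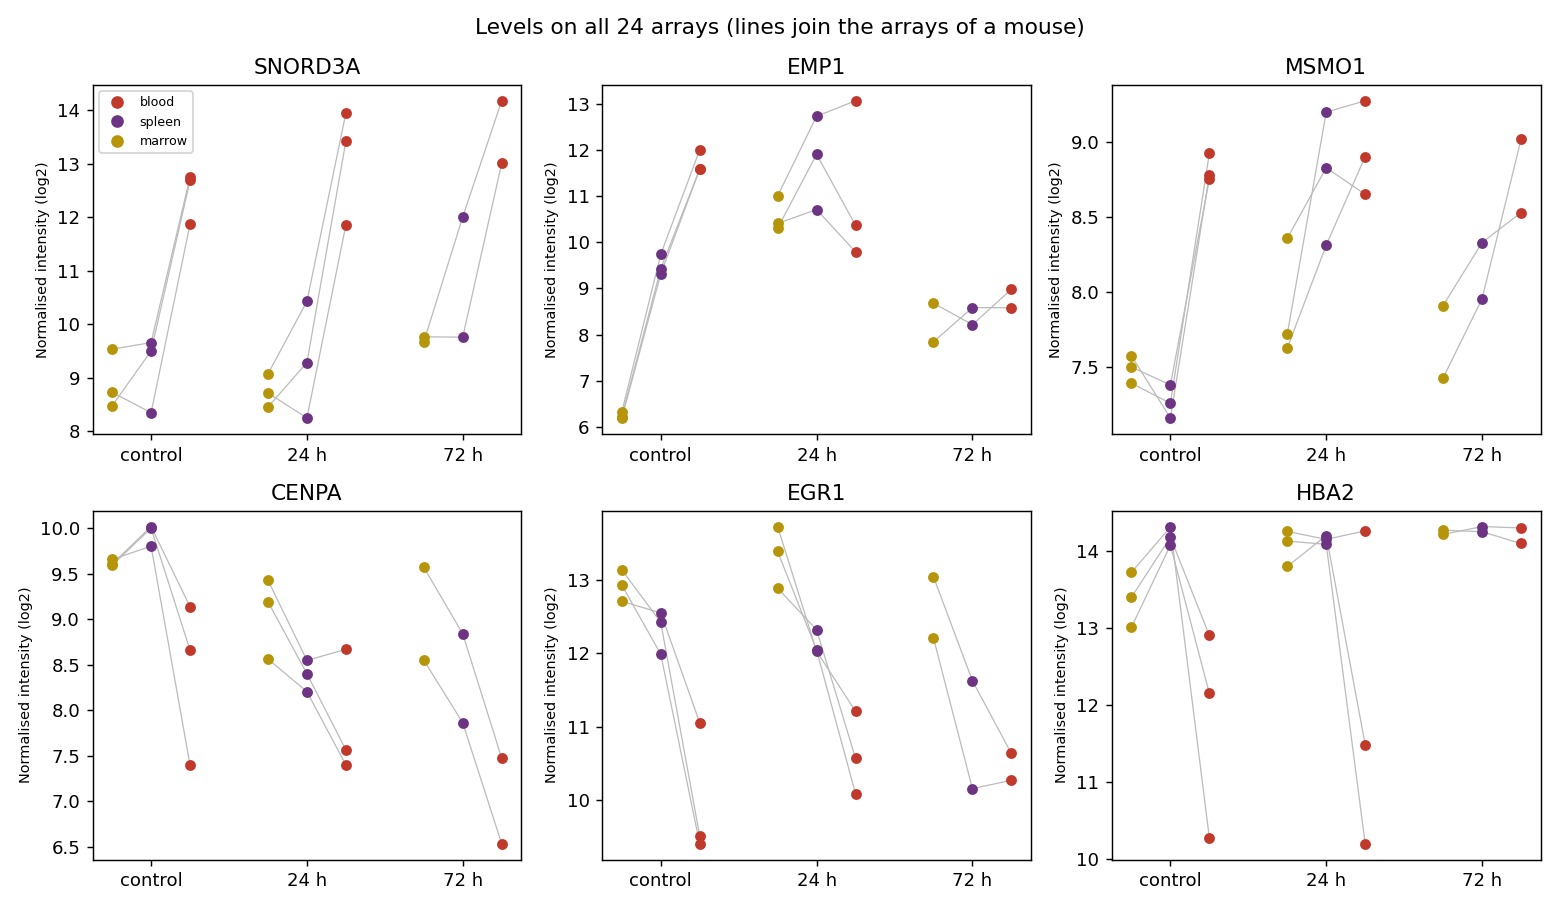
Normalised log2 intensity (vertical axis) of 6 genes on all 24 arrays, by treatment, with marrow in ochre, spleen in purple and blood in red and a line joining the arrays of a mouse. SNORD3A rises from spleen to blood in every mouse, EMP1 does so in all 3 controls but in 1 of 3 mice at 24 h, and HBA2 in blood ranges from 10.20 to 14.26 at 24 h.

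The difference between the sites itself differed between 24 h and control for 131 genes (1.27%), 83 of them with a smaller value of blood minus spleen under the inhibitor and 48 with a larger one. Of the 131, 79 were called in the controls, 59 as higher and 20 as lower in blood. The test subtracts the same control difference that made those calls, so that this overlap and its direction are partly built in. EMP1 went from 2.24 in controls to -0.71 at 24 h (difference -2.95 ± 0.53, adjusted p = 0.0342), and RGCC from 2.27 to -0.15 (-2.42 ± 0.46, adjusted p = 0.0381). RND3 and NACAD went from 2.39 and 2.19 to 0.24 and 0.37, and GINS2 from -1.10 to 0.22. Mean levels in spleen went from 9.49 in controls to 11.79 at 24 h for EMP1 and from 9.76 to 11.75 for RGCC. In blood they went from 11.73 to 11.08 and from 12.03 to 11.60. RND3 went from 6.81 to 8.82 in spleen and from 9.19 to 9.06 in blood, and NACAD from 5.59 to 6.58 and from 7.79 to 6.96. The count of 131 became 0 by limma with no replicate block (1432 at an unadjusted p under 0.05) and without each of the 3 control mice in turn (1257 to 1497). Within BeadChip 1, which held all 24 h mice but a single control mouse, it was 0 too (439 unadjusted), which with 1 control mouse says little. At 72 h 0 genes differed from control by limma, with 1567 at an unadjusted p under 0.05.

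**Figure D5:**
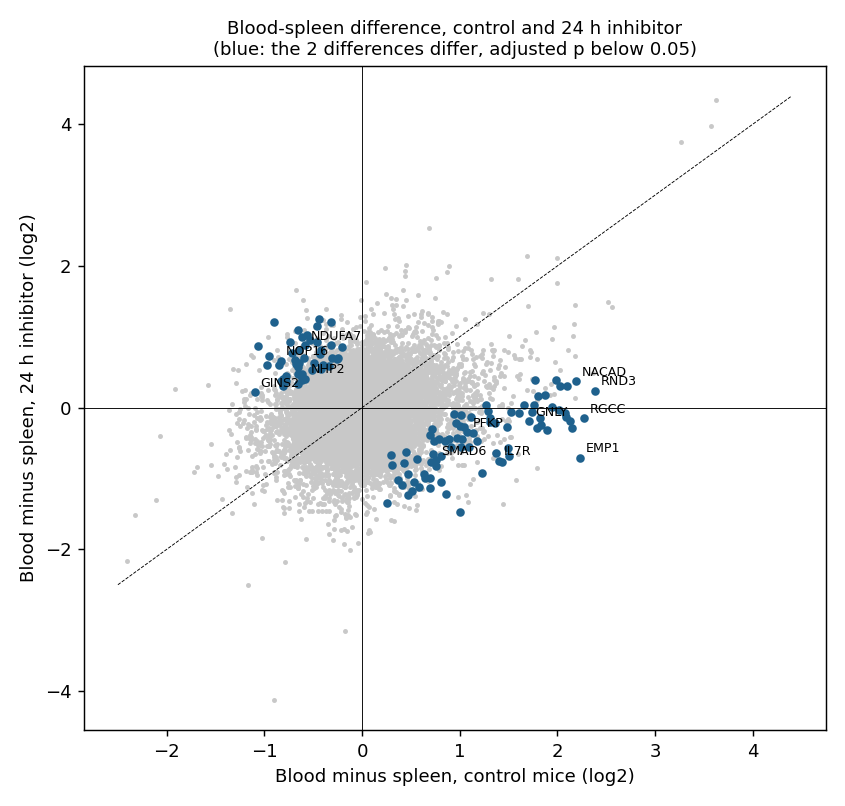
Blood minus spleen (log2) in control mice (horizontal axis) and in mice given the inhibitor for 24 h (vertical axis), 1 point per gene, with the 131 genes whose differences differ between the treatments in blue and equality dashed. EMP1, RGCC, RND3 and NACAD lie far right and near or below 0 on the vertical axis, while the 3 SNORD3 genes lie near the dashed line at the upper right.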

How the data were processed

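The members, the gene lists and the naming rule were chosen with earlier results of these data known. Per the labels' protocols, RNA of sorted cells was amplified in 2 rounds, labelled and hybridised to Illumina human arrays with 47231 probes. The authors deposited the mean bead intensity of each probe on a linear scale, without background subtraction, and beside each intensity a detection p-value in steps of 1 in 770; the submitters' processing notes name GenomeStudio, and no version is given in the sources used here. The deposited series matrix holds the same intensity minus 1 constant per array.

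Intensities were corrected, offset by 16 and quantile normalised on a log2 scale (neqc, limma 3.58.1, R 4.3.3). Probes with a detection p under 0.01 on at least 3 of 24 arrays were kept (17116, of which 13275 had 1 gene symbol in the platform listing). Over all probes 30113 had 1 symbol, 8 several and 17110 none, and the genome build of the listing is not given in the sources used here. Where several probes of a gene were kept, the brightest on average was used, which concerned 2430 of 10351 genes. Of 175 genes checked, 57 had several kept probes, and in 7 of these a probe pointed the other way.

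All 24 arrays entered a single fit of limma with 9 groups of site by treatment and a fixed block per mouse, tests were two-sided, and adjustment ran over all 10351 genes. Blood and spleen arrays of the same mouse come from the same animal, and their deviations from the group means correlated by 0.351, 0.265 and 0.105. Named were CXCR4 and CXCL12, those 15 called genes that rose most and 15 that fell most while moving the same way in all 3 mice, and the leading members of each of 25 pathway and 7 marker lists. For a gene undetected on all arrays of a side the fold is a lower bound, with the lowest detected value of each array as the floor. The number of arrays limits the precision. On simulated data for this comparison with 200 changed genes among 10351, the fit recovered 61.5% at a fold of 2, 99% at 4 and 100% at 8. It made 3, 13 and 9 false calls there. The simulated noise of a gene had the same spread on all arrays, whereas control and treated mice differed in spread here. BeadChip 1 held control mouse 4 and the 24 h mice, and BeadChip 2 control mice 5 and 6 and the 72 h mice. Alternatives covered the block, the samples fitted, the BeadChip, background, scaling, filter and probe choice.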

Additional observations from a re-analysis of the deposited data

Results flagged for a closer look

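For 12 genes among those named or in the lists, the difference between blood and spleen differed between mice given the inhibitor for 24 h and control mice, by a test of the difference itself in limma. The harvest day differs between these groups and cannot be told apart from the treatment. Difference values, 24 h minus control on the log2 scale, were negative for EMP1 (-2.95), RGCC (-2.42), RND3 (-2.15), IL7R (-2.15), GNLY (-1.91), NACAD (-1.82), SMAD6 (-1.498) and PFKP (-1.42). In each of these blood exceeded spleen in the controls, from 0.76 in SMAD6 to 2.39 in RND3. They were positive for NOP16 (1.497), NDUFA7 (1.47), GINS2 (1.32) and NHP2 (0.99), in which blood was lower than spleen in the controls. The test subtracts the control values, by which the genes were in part picked, so that these opposite signs are partly built in. For EMP1, RGCC, RND3 and NACAD the spleen means differed more between control and 24 h than the blood means did. Adjusted p values ran from 0.0342 for EMP1 and IL7R to 0.0471 for PFKP. The count of such genes over the whole table was 0 without any 1 of the control mice and 0 with no replicate block.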

How the results depend on the processing

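The count of 593 genes between control blood and spleen stayed within 1.5 times under a random replicate block (670), no background correction, an offset of 50, the other filters on dim probes and the mean over probes. It was 171 with no replicate block, 151 with the BeadChip as a block, 0 within BeadChip 1 (mouse 4 alone; 367 at an unadjusted p under 0.05) and 41 within BeadChip 2. It was 1963 in the 6 arrays alone, 2926 in the 9 control arrays with the block and 2165 without it, the last chosen after seeing the data, 905 without the 72 h blood array of mouse 8 and 3293 with array weights. Median scaling gave 316, with 38.9% higher in blood instead of 63.7%, and a median over all genes of -0.14; the unscaled series matrix gave 24, with a median of -0.20. Without 1 control mouse it was 14 to 113. No replicate block kept 17 of the 30 named genes called, and the runs without mice 4, 5 and 6 kept 14, 13 and 7; no named gene reversed. The count of 131 at 24 h against control was 0 with no replicate block, 0 with the BeadChip as a block, 0 within BeadChip 1, 199 with a random block, 221 without the 72 h array, 1 with median scaling, 3 on the series matrix, 1795 with array weights and 0 without each control mouse. That of 0 at 72 h became 3 with a random block. The causes were not tested.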
